A study of Ovis aries with 8 samples.

Results

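The mitotic kinesins are motor proteins that build the spindle, move and align chromosomes on it, and help to cut the dividing cell apart. The gene set was fixed by name as KIF20A, KIF23, KIF11, KIF2C, KIF4A, KIF15, KIF18A, KIF18B, KIF22 and KIFC1, with earlier results of these data known. Of these 10 genes, 9 had a row under their symbol among the 25000 rows of the expression table. KIF4A was not listed under its symbol and was not analysed here. RNA came from hand-picked pancreatic islets of 8 near-term fetal sheep, all singletons carried by Columbia-Rambouillet crossbred ewes. The 4 NE-Infused fetuses received norepinephrine into a vein for 7 days. The rate was 1 µg/min for the first day, was raised to 2 µg/min for days 2 to 4, and stood at 4 µg/min from day 5 through day 7. They were 137 to 139 days old and weighed 2.8 to 3.7 kg. The 4 Saline-Control fetuses received the diluent alone, which was 0.9% saline with 0.3% ascorbic acid. They were 139 to 140 days old and weighed 3.6 to 5 kg. Each group held 1 female, NE-Infused 3 and Saline-Control 2. Every library is a separate fetus with its own number in the labels.

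Kinesins are ATP-driven motors that move along, slide or shorten microtubules. Most of those studied here are transcribed in late S, G2 and M phase under the DREAM and FOXM1-MYBL2 programmes and are scarce in resting cells, so their transcripts are commonly read with those of other genes of cell division. In the fetal islet, beta cells still divide, and norepinephrine is known there for its block of insulin secretion through alpha-2 adrenergic receptors. The comparison sets the levels of these motors in islets exposed to that catecholamine beside those in islets given its diluent.

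All 9 kinesins had a lower mean FPKM (sequenced fragments scaled to transcript length and to the library's mapped total) in NE-Infused than in Saline-Control islets. The NE-Infused mean ran from 37.0% of the Saline-Control mean for KIF20A, a motor of cytokinesis, to 69.3% for KIF18A, which dampens chromosome oscillation. For 6 of the 9 (KIF20A, KIF11, KIF2C, KIF15, KIF18B and KIFC1) every NE-Infused animal lay below every Saline-Control animal, where 2.02% of the 18244 rows above 0 in at least 1 animal did so. Among the 5 abundant enough to be tested it was KIF20A, KIF11 and KIFC1, where 2.35% of tested rows did so. A lower mean by itself was common, since 45.8% of the 18244 rows had one. The kinesins were chosen with earlier results of these data known, so shares set beside their counts here and below are descriptions, not tests. No gene of the table passed the test across all genes, and no kinesin did either.

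The test was limma on log2(FPKM + 1) over the 13252 rows with a mean of at least 1 FPKM, and p-values were adjusted by Benjamini-Hochberg, with calls made under 0.05. It called 0 genes (0%), with 496 lower and 479 higher at an unadjusted p under 0.05. The 5 kinesins above this filter (KIF20A, KIF23, KIF11, KIF22 and KIFC1) were all lower at an unadjusted p under 0.05, against 3.74% of all tested rows. Their adjusted p lay between 0.397 and 0.663. The other 4, KIF2C, KIF15, KIF18A and KIF18B, averaged under 1 FPKM. In a fit with no filter on low values 7 of the 9 were lower at an unadjusted p under 0.05, against 3.49% of 18244 rows. KIF23 and KIF18A did not reach that level there (limma unadjusted p = 0.0527 for KIF23 and 0.0648 for KIF18A). All differences below are NE-Infused minus Saline-Control on the log2(FPKM + 1) scale, which understates the change of low genes, and ± values are SDs over n = 4 animals. In bulk islet RNA, fewer dividing cells and less RNA per cell cannot be told apart.

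**Figure D1:**
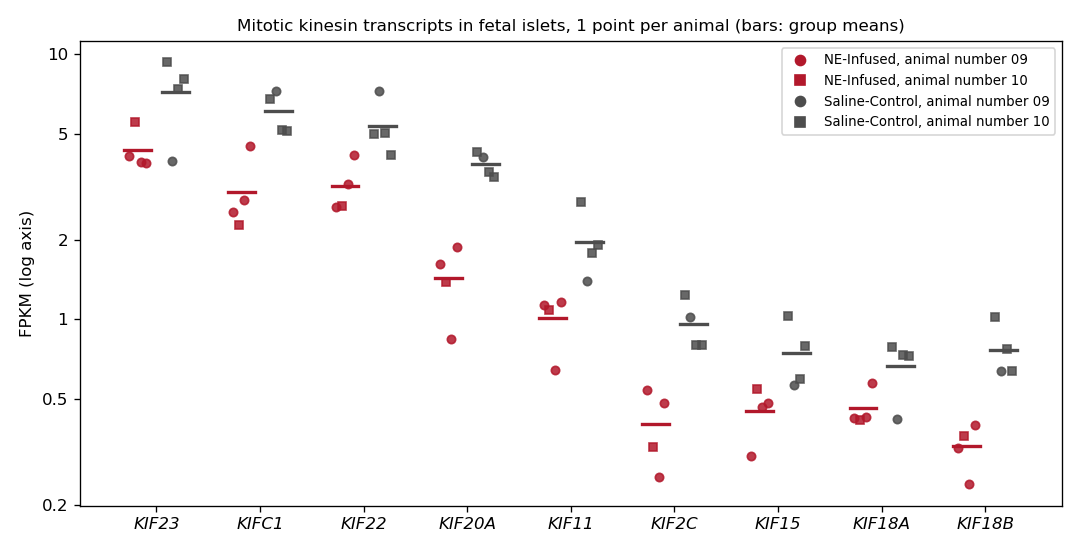
FPKM of the 9 mitotic kinesins on a log axis, 1 point per animal, NE-Infused left of Saline-Control in each gene, with bars at the group means and symbols for the first 2 digits of the animal number. In KIF20A, KIF11, KIF2C, KIF15, KIF18B and KIFC1 the groups do not overlap. Saline-Control 2, the control numbered 09 and also the female and youngest control, lies among the NE-Infused animals in KIF23 and KIF18A.

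Libraries differed by more than treatment. The first 2 digits of the animal number are 09 for NE-Infused 1, 3 and 4 and Saline-Control 2, and 10 for the other 4, and the labels do not say what they mean. Summed FPKM was 981583 to 1112624 in the animals numbered 09 and 768021 to 796149 in those numbered 10. Depth is known only in relative terms, from the steps in which FPKM moves in genes with few fragments. Relative to Saline-Control 1 it was 0.648 in NE-Infused 1, 1.01 in NE-Infused 2, 0.726 in NE-Infused 3, 1.17 in Saline-Control 3 and 1.08 in Saline-Control 4. NE-Infused 4 and Saline-Control 2 gave no clear step, so no counting interval is given. Scaling all libraries to the same total moved the median difference of all tested genes to -0.12, against 0.02 as deposited, and gave 810 lower and 233 higher genes in place of 496 and 479. The endocrine identity of the tissue was plain in all libraries: 11 of 15 endocrine markers were listed, summing to 6561 to 12176 FPKM in NE-Infused and 4679 to 8100 FPKM in Saline-Control islets. All 11 had higher means with norepinephrine, where 45.8% of the 18244 rows above 0 in at least 1 animal had a lower log2 mean. The part of the endocrine levels in the kinesin differences was not tested. INS, PPY, HHEX and NEUROD1 were not analysed here.

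The motors that set up the bipolar spindle were measured first. KIF11, also called Eg5, pushes the spindle poles apart by sliding antiparallel microtubules (chromosome 22, 13731294 to 13771253 on Oar_v3.1, the sheep build the submitters name). It stood at 1.14, 1.08, 0.645 and 1.17 FPKM in NE-Infused animals 1 to 4, against 2.77, 1.39, 1.78 and 1.90 FPKM in Saline-Control animals 1 to 4. The groups did not overlap, with NE-Infused 3 the lowest animal and Saline-Control 1 the highest. The difference was -0.55 (SE 0.21, limma adjusted p = 0.600).

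KIF15 can take over pole separation when KIF11 is blocked (chromosome 19, 16405187 to 16463300). Its values were 0.306, 0.545, 0.467 and 0.483 FPKM in NE-Infused animals and 1.03, 0.565, 0.595 and 0.796 FPKM in Saline-Control animals. The gap between the groups was narrow, 0.545 FPKM in NE-Infused 2 against 0.565 FPKM in Saline-Control 2. The difference was -0.26 without the filter (SE 0.10, limma unadjusted p = 0.0294 and adjusted p = 0.654).

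KIFC1, or HSET, is the minus-end directed motor that focuses spindle poles and opposes KIF11 (chromosome 20, 7678568 to 7686289). It had 2.54, 2.26, 2.81 and 4.52 FPKM in NE-Infused islets, against 6.74, 7.27, 5.18 and 5.13 FPKM in Saline-Control islets. NE-Infused 4 came close to the lowest control, and the other 3 NE-Infused animals lay well below. The difference was -0.83 (SE 0.21, limma adjusted p = 0.498), with an NE-Infused mean at 49.9% of the Saline-Control mean. So the outward motor KIF11 (51.4%), its stand-in KIF15 (60.4%) and the inward motor KIFC1 all had lower means.

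The motors of kinetochores and chromosomes came next. KIF2C, or MCAK, takes microtubule ends apart and corrects wrong kinetochore attachments (chromosome 1, 19196066 to 19216520). It stood at 0.544, 0.330, 0.255 and 0.482 FPKM in NE-Infused islets and at 1.23, 1.02, 0.804 and 0.803 FPKM in Saline-Control islets. Every NE-Infused value was below the lowest control, and Saline-Control 1 was the highest animal. The difference was -0.48 without the filter (SE 0.10, limma unadjusted p = 0.00130 and adjusted p = 0.431).

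KIF18B, a plus-end motor that shortens astral microtubules together with KIF2C, showed a like spread (chromosome 11, 44054083 to 44070017). NE-Infused islets had 0.327, 0.363, 0.239 and 0.400 FPKM, and Saline-Control islets had 1.02, 0.639, 0.771 and 0.640 FPKM. No animals overlapped, and the difference was -0.40 without the filter (SE 0.08, limma unadjusted p = 0.00122 and adjusted p = 0.431).

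KIF18A limits the swings of chromosomes on the metaphase plate (chromosome 15, 56874126 to 56943420). It had 0.423, 0.417, 0.428 and 0.578 FPKM in NE-Infused islets, against 0.786, 0.422, 0.732 and 0.725 FPKM in Saline-Control islets. Saline-Control 2 lay among the NE-Infused animals, and the other 3 controls lay above all of them. The difference was -0.18 (SE 0.09, limma unadjusted p = 0.0648 without the filter).

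KIF22, or Kid, is a DNA-binding motor that pushes chromosome arms toward the equator (chromosome 24, 26443971 to 26493101). That locus overlaps those of 5 other rows, among them MAZ and C16orf54, so its value is uncertain. It had 2.64, 2.68, 3.23 and 4.18 FPKM in NE-Infused islets and 5.00, 7.25, 5.04 and 4.16 FPKM in Saline-Control islets. NE-Infused 4 lay just above Saline-Control 4, and the other animals were apart. The difference was -0.60 (SE 0.20, limma adjusted p = 0.574).

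The motors of the central spindle and of cytokinesis were KIF20A and KIF23. KIF20A, or MKLP2, carries the chromosomal passenger complex to the central spindle (chromosome 5, 46994290 to 47001867). It stood at 1.61, 1.38, 0.846 and 1.87 FPKM in NE-Infused islets, against 4.28, 4.11, 3.58 and 3.44 FPKM in Saline-Control islets. The lowest control was thus at 3.44 FPKM and the highest NE-Infused animal at 1.87 FPKM. The difference of -1.01 had the lowest unadjusted p of the set (SE 0.19, limma unadjusted p = 0.000390 and adjusted p = 0.397).

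KIF23, or MKLP1, bundles central spindle microtubules with RACGAP1 in the centralspindlin complex (chromosome 7, 16078139 to 16122235). It had 4.12, 5.56, 3.91 and 3.87 FPKM in NE-Infused islets and 9.31, 3.96, 7.38 and 8.05 FPKM in Saline-Control islets. KIF23 had the highest FPKM of the set in both groups, at 4.36 ± 0.803 in NE-Infused and 7.17 ± 2.29 in Saline-Control islets. Saline-Control 2 lay among the NE-Infused animals, and the other 3 controls lay above all of them. The difference was -0.57 (SE 0.24, limma adjusted p = 0.663), and -0.79 without Saline-Control 2.

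The order of the FPKM levels differed between the groups in part. In NE-Infused islets KIF23 (4.36 ± 0.803) stood first, then KIF22 (3.18 ± 0.716), KIFC1 (3.03 ± 1.01), KIF20A (1.43 ± 0.435), KIF11 (1.01 ± 0.244), KIF18A (0.461 ± 0.0779), KIF15 (0.450 ± 0.102), KIF2C (0.403 ± 0.133) and KIF18B (0.332 ± 0.0691). In Saline-Control islets the order was KIF23 (7.17 ± 2.29), KIFC1 (6.08 ± 1.09), KIF22 (5.36 ± 1.32), KIF20A (3.85 ± 0.406), KIF11 (1.96 ± 0.580), KIF2C (0.964 ± 0.205), KIF18B (0.768 ± 0.18), KIF15 (0.745 ± 0.213) and KIF18A (0.666 ± 0.165). KIF22 and KIFC1 lay within their SDs of each other in both groups, and among the last 4 each lay within the larger SD of its neighbour. KIF2C and KIF18B thus stood at the head of the scarce motors in Saline-Control islets and at their foot in NE-Infused islets, an order that was not tested.

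As a mean over the 9 kinesins, log2(FPKM + 1) was 1.16, 1.18, 1.07 and 1.34 in NE-Infused animals 1 to 4 and 1.92, 1.65, 1.68 and 1.67 in Saline-Control animals 1 to 4. The groups did not overlap, at 1.19 ± 0.112 in NE-Infused and 1.73 ± 0.124 in Saline-Control islets, a difference of -0.54 that was given no test. NE-Infused 3 was the lowest of its group in 4 of 9 kinesins and NE-Infused 4 the highest in 6. Among controls, Saline-Control 1 was the highest in 7, Saline-Control 2 the lowest in 5 and Saline-Control 4 the lowest in 4. NE-Infused 3 and Saline-Control 2 were the females of their groups, and the part of sex was not tested.

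The differences were also taken within each set of animal numbers. KIF20A differed by -1.09 among animals numbered 09 and by -0.996 among those numbered 10. In the same order KIFC1 differed by -0.97 and -1.03, KIF2C by -0.51 and -0.54, KIF22 by -0.94 and -0.64, and KIF18B by -0.31 and -0.40. KIF11 differed by -0.28 and -0.58, and KIF15 by -0.14 and -0.22. KIF23 was at 0.00048 among animals numbered 09 and at -0.49 among those numbered 10, and KIF18A was at 0.05 and -0.30. The mean over the 9 kinesins differed by -0.47 and -0.58. Each value rests on 1 animal in 1 of its groups, Saline-Control 2 among 09 and NE-Infused 2 among 10, and none was tested. Saline-Control 2 was also the only female control and, at 139 days, the youngest, so number, sex and age cannot be told apart in it.

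With the first digits of the animal number as a covariate, 3 of the 5 tested kinesins were lower at an unadjusted p under 0.05, against 7.14% of tested rows. They were KIF20A (-1.04), KIFC1 and KIF22 (-0.79), each with a limma adjusted p of 0.307. No kinesin passed after adjustment in that fit, where 0.00755% of tested rows did. KIF11 was then at -0.43 (SE 0.22, limma unadjusted p = 0.0828) and KIF23 at -0.25 (SE 0.16, limma unadjusted p = 0.166). With gestational age as a covariate KIF20A was at -1.32, KIFC1 at -1.28 and KIF22 at -0.97, while KIF11 was at -0.57 (limma unadjusted p = 0.109) and KIF23 at -0.15 (limma unadjusted p = 0.651).

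**Figure D2:**
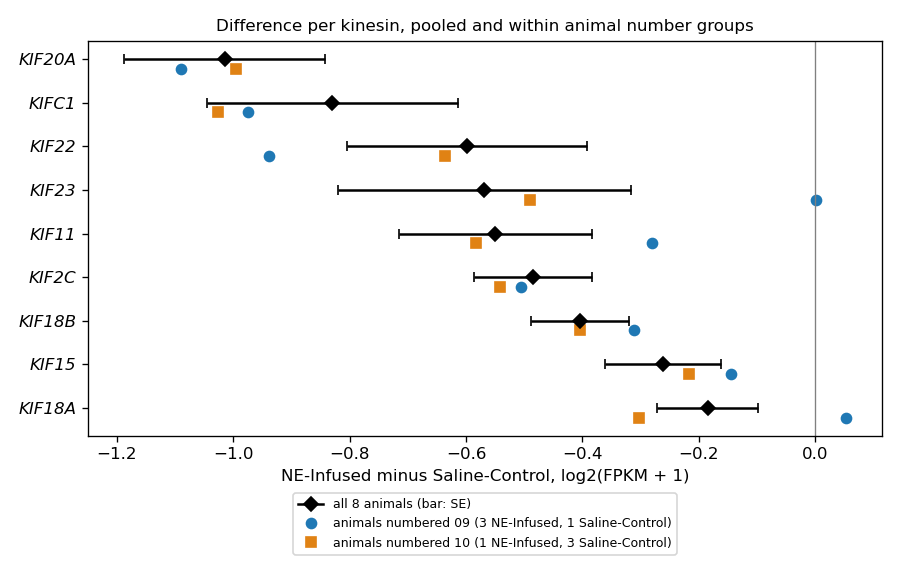
Difference of each kinesin, NE-Infused minus Saline-Control in log2(FPKM + 1), over all 8 animals with its SE from the fit without a filter (diamonds), and within the animals numbered 09 (circles) and 10 (squares), which carry no error because 1 group holds 1 animal. KIF20A, KIFC1 and KIF2C sit at about the same place in all 3 estimates, and KIF23 and KIF18A are at or above 0 among animals numbered 09.

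Markers of other cell types were summed in each animal. Of the 10 listed acinar markers, which encode digestive enzymes and their regulators, 10 had higher means with norepinephrine, and their sum was 131 to 913 FPKM in NE-Infused and 114 to 151 FPKM in Saline-Control islets. The 8 listed mesenchyme markers all had higher means with norepinephrine. Beside the acinar and mesenchyme counts, 45.8% of all 18244 rows had a lower log2 mean. The mesenchyme sum was 718, 334, 333 and 2017 FPKM in NE-Infused animals 1 to 4, and 479 to 810 FPKM in Saline-Control islets. Only NE-Infused 4 lay above every control in this sum, and NE-Infused 2 and 3 lay below every control. The 8 endothelial markers summed to 162 to 358 FPKM in NE-Infused and 221 to 300 FPKM in Saline-Control islets, and the 7 duct markers to 1174 to 1824 FPKM in NE-Infused and 1252 to 1489 FPKM in Saline-Control islets. The 8 leukocyte markers summed to 129 to 203 FPKM in NE-Infused and 124 to 177 FPKM in Saline-Control islets. These sums overlapped between the groups. Erythroid markers (3 of 6 listed) summed to at most 0.308 FPKM in any animal, and no listed marker was at 0 in all animals. Among the acinar markers CPB1, a carboxypeptidase named after its values were seen, stood at 139.8, 58.4, 121.7 and 60.1 FPKM in NE-Infused islets and at 39.0, 15.5, 16.7 and 15.8 FPKM in Saline-Control islets, with no overlap. NE-Infused 2 had an acinar sum of 131 FPKM, inside the range of the controls, and a CPB1 level above all of them. NE-Infused 4, the youngest fetus at 137 days, had the highest mesenchyme sum (2017 FPKM) and the highest kinesin mean of its group. Its endocrine (12176 FPKM) and endothelial (358 FPKM) marker sums were also the highest of any animal. The part of these cell types in the kinesin differences was not tested.

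**Figure D3:**
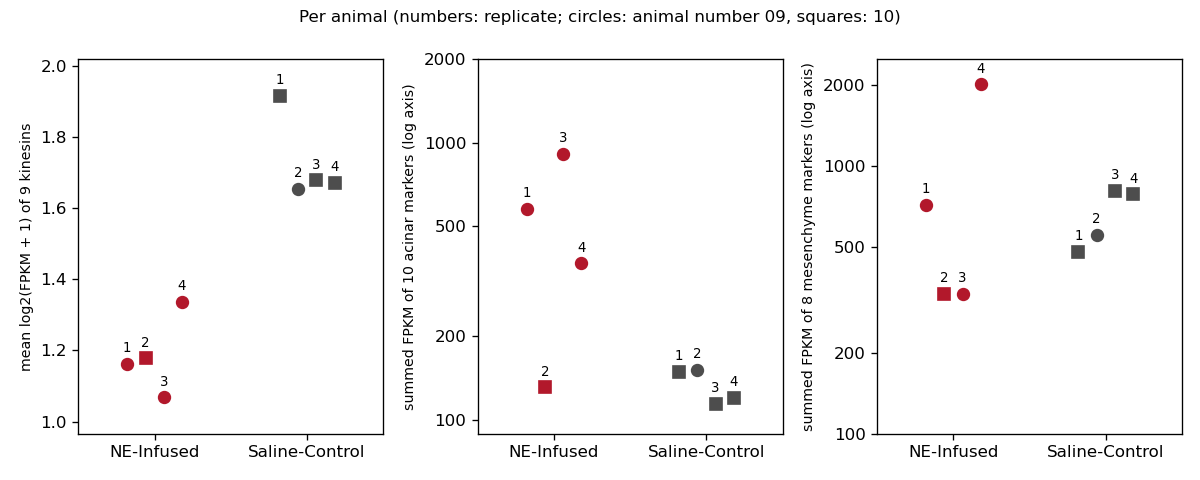
For each animal, the mean log2(FPKM + 1) of the 9 kinesins, the summed FPKM of 10 acinar markers and the summed FPKM of 8 mesenchyme markers (both log axes). The kinesin means of NE-Infused animals lie between 1.07 and 1.34 and those of Saline-Control animals between 1.65 and 1.92, while the marker sums of the groups overlap.

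Other kinesins gave a frame for the set. Of 25 kinesins of transport, cilia and interphase, 15 had lower means, against 45.8% of all 18244 rows. At an unadjusted p under 0.05 by limma without a filter, 0 were lower or higher, where 3.49% of rows were lower and 3.64% higher. In a list of 25 genes, 0 is near those shares. The median difference was -0.07, against -0.55 for the 9 mitotic kinesins and 0.01 for all 18244 rows. The most abundant were KIF12 (108.4 ± 23.3 FPKM in NE-Infused and 102.4 ± 32.1 FPKM in Saline-Control islets), and KIF5B, the conventional kinesin heavy chain (86.3 ± 19.2 FPKM in NE-Infused and 96.8 ± 24.0 FPKM in Saline-Control islets). Neither sign was stable: KIF12 (0.11) was negative with equal library totals, and KIF5B (-0.15) was positive with the animal number as a covariate.

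Among 5 further kinesins with a part in mitosis, 4 had lower means, against 45.8% of all 18244 rows. At an unadjusted p under 0.05 by limma without a filter, 2 were lower (CENPE and KIF14), against 3.49% of all rows. The median difference was -0.22. KIF14, which holds PRC1 and citron kinase at the midbody, had 10.6, 13.2, 9.91 and 5.11 FPKM in NE-Infused islets and 16.1, 12.5, 14.3 and 14.5 FPKM in Saline-Control islets. NE-Infused 2 overlapped with Saline-Control 2, and the difference was -0.58 (SE 0.24, limma adjusted p = 0.663), which turned to 0.06 with gestational age as a covariate. CENPE, the kinetochore motor that draws chromosomes to the plate, was below the filter at 0.387 ± 0.120 FPKM in NE-Infused and 0.850 ± 0.285 FPKM in Saline-Control islets. KIF2A, a relative of KIF2C that also works in interphase cells, was at 44.9 ± 5.42 FPKM in NE-Infused and 46.5 ± 5.50 FPKM in Saline-Control islets. KIF20B was at 2.29 ± 0.473 FPKM in NE-Infused and 2.87 ± 0.847 FPKM in Saline-Control islets. CENPE, KIF2A and KIF20B are named outside the rule for named genes, after their values were seen.

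The partners of the cytokinesis motors followed. Of 11 central spindle and cytokinesis genes, 11 had lower means and 9 were lower at an unadjusted p under 0.05 without a filter, with a median difference of -0.62. Over all 18244 rows 45.8% had a lower mean and 3.49% were lower at that p, with a median of 0.01. PRC1, which crosslinks the central spindle and anchors its kinesins, stood at 3.20, 3.66, 3.48 and 3.36 FPKM in NE-Infused islets and at 8.92, 8.11, 5.22 and 6.95 FPKM in Saline-Control islets. Its NE-Infused values lay close together and below all controls (difference -0.89, SE 0.18, limma adjusted p = 0.451). AURKB, the kinase of the chromosomal passenger complex, was at 0.760 ± 0.330 FPKM in NE-Infused and 2.18 ± 0.334 FPKM in Saline-Control islets, and ANLN, the anillin of the cleavage furrow, at 1.46 ± 0.272 FPKM in NE-Infused and 2.84 ± 0.358 FPKM in Saline-Control islets.

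RACGAP1, the partner of KIF23 in centralspindlin and named after its values were seen, had 4.23, 3.55, 2.76 and 4.43 FPKM in NE-Infused islets and 6.59, 4.14, 6.52 and 7.43 FPKM in Saline-Control islets. Its low control was Saline-Control 2, as for KIF23. The ratio of KIF23 to RACGAP1 in FPKM was 1.21 ± 0.335 in NE-Infused and 1.15 ± 0.192 in Saline-Control islets, and the groups overlapped.

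Of 11 listed spindle assembly genes, 9 had lower means, 4 were lower at an unadjusted p under 0.05 without a filter, and the median difference was -0.31, beside 45.8% and 3.49% of all 18244 rows. HMMR, a hyaluronan receptor that also organises spindle poles, was at 1.62, 1.94, 0.514 and 1.28 FPKM in NE-Infused islets and 7.02, 3.72, 4.55 and 3.87 FPKM in Saline-Control islets, with no overlap (difference -1.32, SE 0.26, limma adjusted p = 0.451). TPX2, which recruits KIF11 and KIF15 to spindle microtubules, was at 4.36 ± 1.04 FPKM in NE-Infused and 7.26 ± 2.13 FPKM in Saline-Control islets, with Saline-Control 2 at 4.13 FPKM among the NE-Infused animals. With gestational age as a covariate TPX2 was at -0.38 (limma unadjusted p = 0.330). With the animal number as the covariate it was at -0.34 (limma unadjusted p = 0.159).

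Of 12 kinetochore and checkpoint genes, 10 had lower means and 7 were lower at an unadjusted p under 0.05 without a filter, with a median of -0.31, where all rows gave 45.8% and 3.49%. CDC20, the activator of the anaphase-promoting complex, stood at 2.55 ± 0.943 FPKM in NE-Infused and 6.05 ± 1.55 FPKM in Saline-Control islets. NDC80, the microtubule coupler of the kinetochore, was at 0.634 ± 0.222 FPKM in NE-Infused and 1.37 ± 0.202 FPKM in Saline-Control islets. BUB1B, the checkpoint protein BubR1, was at 1.12 ± 0.149 FPKM in NE-Infused and 2.22 ± 0.669 FPKM in Saline-Control islets. The groups did not overlap in any of these 3 genes, nor in 2.02% of all rows in that direction, and none passed after adjustment. With gestational age as a covariate BUB1B was at -0.42 (limma unadjusted p = 0.181).

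Of 8 chromosome condensation genes, the side of mitosis nearest to KIF22, 8 had lower means, against 45.8% of all rows. Of these 8 genes 1, TOP2A, was lower at an unadjusted p under 0.05, against 3.49% of all rows without a filter. TOP2A, which untangles sister chromatids, was at 2.39 ± 0.649 FPKM in NE-Infused and 5.88 ± 1.46 FPKM in Saline-Control islets, although its locus overlaps that of RARA. The median of the 8 genes was -0.36.

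Of 6 listed genes of mitotic entry and proliferation, 6 had lower means and 5 were lower at an unadjusted p under 0.05, against 45.8% and 3.49% of all rows without a filter. MKI67, the proliferation antigen Ki-67, was at 0.811, 0.529, 0.578 and 0.819 FPKM in NE-Infused islets and 2.04, 1.65, 1.54 and 1.56 FPKM in Saline-Control islets. CDC25B, a phosphatase that activates CDK1, was at 3.23 ± 0.248 FPKM in NE-Infused and 5.29 ± 0.521 FPKM in Saline-Control islets. UBE2C, which attaches ubiquitin for the anaphase-promoting complex, was at 4.98 ± 2.43 FPKM in NE-Infused and 14.6 ± 4.68 FPKM in Saline-Control islets. Of 11 listed regulators of G2/M transcription, 7 had lower means and 1 was lower at an unadjusted p under 0.05 without a filter, with a median of -0.12. The shares over all rows were again 45.8% and 3.49%. That gene, named after its values were seen, was FOXM1, at 0.586 ± 0.288 FPKM in NE-Infused and 1.19 ± 0.301 FPKM in Saline-Control islets. The FOXM1 locus overlaps those of 5 other rows. E2F4, the most abundant of the list, was at 65.6 ± 7.24 FPKM in NE-Infused and 60.3 ± 4.47 FPKM in Saline-Control islets, and LIN52 was at 46.0 ± 4.66 FPKM in NE-Infused and 44.7 ± 2.51 FPKM in Saline-Control islets. Both differences were negative once library totals were made equal.

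The kinesins were also set against MKI67 in each animal. The ratio of KIF20A to MKI67 in FPKM was 2.09 ± 0.489 in NE-Infused and 2.28 ± 0.166 in Saline-Control islets, and the groups overlapped. The ratio of KIFC1 to MKI67 was 4.45 ± 1.01 in NE-Infused and 3.58 ± 0.543 in Saline-Control islets, also overlapping. The ratio of KIF18A to MKI67 was 0.522, 0.788, 0.740 and 0.706 in NE-Infused islets, against 0.385, 0.255, 0.474 and 0.464 in Saline-Control islets, so it was higher in every NE-Infused animal. These ratios were chosen after the values were seen and were not tested.

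Tubulins form the tracks of these motors. All 6 listed tubulins had higher means, where 45.8% of all 18244 rows had a lower one. At an unadjusted p under 0.05 by limma, 3 of them were higher, where 3.64% of rows were higher without a filter. The median difference was 0.65. TUBB stood at 504, 336, 497 and 613 FPKM in NE-Infused islets and at 234, 335, 306 and 317 FPKM in Saline-Control islets, with NE-Infused 2 just above the highest control (difference 0.69, SE 0.20, limma adjusted p = 0.523). TUBA1B was at 294.7 ± 65.1 FPKM in NE-Infused and 189.5 ± 44.2 FPKM in Saline-Control islets, and TUBA1C at 153.4 ± 36.5 FPKM in NE-Infused and 96.6 ± 46.7 FPKM in Saline-Control islets. Near-identical tubulin copies can share fragments, and the locus of TUBB overlaps that of FLOT1, so these values are uncertain. With gestational age as a covariate the differences were 0.27 for TUBB (limma unadjusted p = 0.303), 0.12 for TUBA1B (limma unadjusted p = 0.579) and 0.0087 for TUBA1C (limma unadjusted p = 0.979), so none of the 3 stayed under 0.05. With the animal number as a covariate TUBA1C was at 0.28 (limma unadjusted p = 0.114). The tubulin median was 0.08 among animals numbered 09, 0.30 among those numbered 10 and 0.50 with equal library totals, where the kinesin median was -0.67 and that of all tested genes -0.12.

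**Figure D4:**
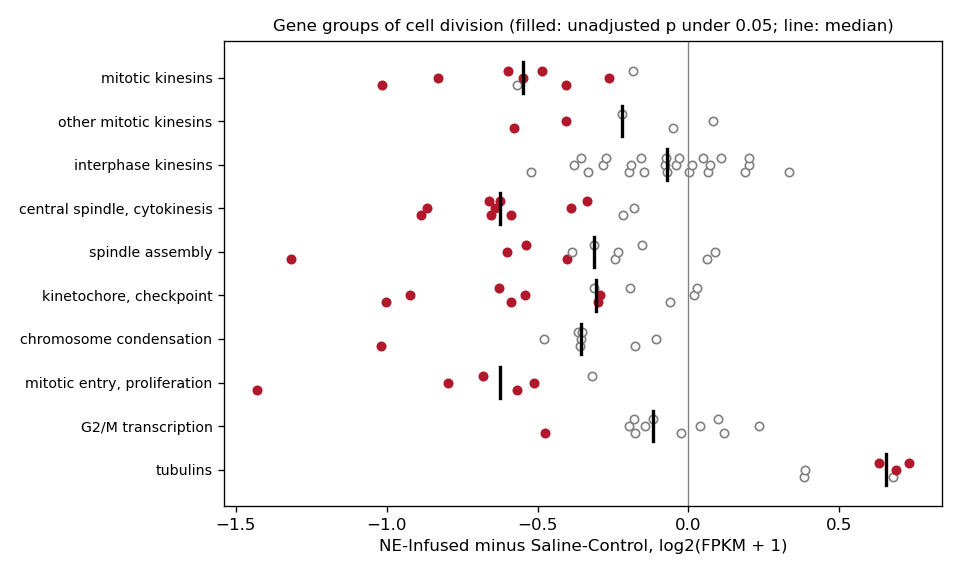
Difference of each gene, NE-Infused minus Saline-Control in log2(FPKM + 1), by gene group, 1 point per gene above 0 in at least 1 animal. Filled points have an unadjusted p under 0.05 in the fit without a filter and black lines are medians: the mitotic kinesins (-0.55) and the central spindle genes (-0.62) lie left of 0, the interphase kinesins (-0.07) lie around 0, and the tubulins (0.65) lie right of it.

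The genes whose profile was nearest to the mean of the 5 tested kinesins were sought among 11365 tested rows with a gene symbol, by root mean square distance of the centred log2(FPKM + 1) values over the 8 animals. They were MKI67 (0.0808), NDC80 (0.107), CDC25B (0.114), AURKB (0.123) and TMEM196 (0.129), where the median row lay at 0.460. MKI67, NDC80 and AURKB averaged 0.684, 0.634 and 0.760 FPKM in NE-Infused islets, so they passed the filter only through Saline-Control islets. The distance includes the group difference itself and was not tested. TMEM196 alone was in none of the gene lists, at 1.70, 1.78, 1.55 and 2.28 FPKM in NE-Infused islets and 4.25, 3.46, 4.46 and 4.33 FPKM in Saline-Control islets (difference -0.86, SE 0.16, limma adjusted p = 0.439).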

How the data were processed

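Islets were isolated and picked by hand, mRNA was selected and made into TruSeq libraries and read in pairs of 100 bp, per the labels' protocols. Per the submitters' processing notes, the tools were TopHat2 2.0.1, Cufflinks 2.1.1 and Cuffdiff, on sheep build Oar_v3.1. Not given in the sources used here: annotation and strand. The authors deposited FPKM values, 1 column per animal and 25000 rows, with no counts, and 0 other sample columns were present. Columns were matched by the animal number in header and title. Starts were raised by 1.

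Rows with a mean of at least 1 FPKM were compared as log2(FPKM + 1) with limma 3.58.1 in R 4.3.3 (lmFit, eBayes with trend), two-sided, threshold 0.05. This was tried on simulated data with changes planted only in the more abundant genes, so recovery at the level of most kinesins here was not tested. The 10 members and all lists were chosen with earlier results of these data known. Named were all members, up to 3 genes a list with the lowest unadjusted p under 0.05 (else the 2 most abundant), and the 5 nearest profiles. Lists were counted over every row above 0, since a mean filter keeps genes through their higher group. No score over members was tested.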

Additional observations from a re-analysis of the deposited data

Results flagged for a closer look

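Among the 18 sets of 4 values (9 kinesins in 2 groups), 4 had 1 animal whose gap to the next, as a share of the group's range, passed Dixon's critical value for 4 values, which chance alone passes in about 1 of 20 sets. KIF23 was high in NE-Infused 2, at 5.56 FPKM against 3.87 to 4.12 in the other 3 (share 0.854). KIF11 was low in NE-Infused 3, at 0.645 FPKM against 1.08 to 1.17 (0.843). KIF18A was high in NE-Infused 4, at 0.578 FPKM against 0.417 to 0.428 (0.932). KIF18A was low in Saline-Control 2, at 0.422 FPKM against 0.725 to 0.786 (0.833).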

How the results depend on the processing

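All 9 kinesins kept a difference below 0 under each of the 15 alternatives run for KIF20A, KIF23, KIF11, KIF22 and KIFC1 and the 14 run for the other 4. The fits without the filter, without the variance trend and with the replicate block cannot change a difference, so its sign was fixed there. None of the first 5 kinesins named passed after adjustment (lowest adjusted p = 0.188, KIF20A without Saline-Control 2), and the other 4 were tested only without the filter (lowest adjusted p = 0.431). The number of kinesins lower at an unadjusted p under 0.05 was 5 as reported. It was 3 with the animal number as a covariate, 3 with gestational age and 3 with a replicate block. Over all 13252 tested rows, 496 were lower at that p as reported. With the animal number 946 were, with gestational age 707 and with the replicate block 326. The kinesin count ran from 3 (without NE-Infused 3 or Saline-Control 1, KIF23 and KIF11 lost) to 5 with 1 animal left out. The mean over the kinesins, -0.54, was -0.87 with a pseudocount of 0.1, -0.71 over the 5 tested members and -0.54 without KIF22 (both chosen after seeing the data), and ran from -0.59 to -0.48 with 1 animal left out. Genes passing after adjustment numbered 1 with equal library totals, 1 with the animal number as a covariate, and 0 to 2 with 1 animal left out (2 without NE-Infused 1, 1 without NE-Infused 3). Genes lower at an unadjusted p under 0.05 numbered 810 with equal totals. With 1 animal left out they numbered 325 (without Saline-Control 3) to 892 (without Saline-Control 2). Genes higher numbered 233 with equal totals and 270 (without Saline-Control 3) to 1309 (without Saline-Control 2), with 822 without NE-Infused 2 and 301 without Saline-Control 4. The replicate numbers belong to different animals: deviations of same-numbered animals correlated at -0.16, -0.38, -0.03 and 0.09, and 0 of 4 correlated best with their own number. Signs turned for KIF14 with gestational age (0.059), KIF5B with the animal number (0.20) and age (0.37), E2F4 with equal totals (-0.036) and age (-0.12), and LIN52 (-0.11) and KIF12 (-0.043) with equal totals. With 1 animal left out KIF12 ran from -0.021 without NE-Infused 2 (-0.020 without Saline-Control 3) to 0.29, and LIN52 from -0.019 without NE-Infused 3 to 0.097. None of these 10 passed after adjustment, and the cause was not tested. Depth in fragments is unknown, so the error of the kinesins under 1 FPKM is known only from the spread between animals.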
